A study of Mus musculus with 7 samples.

Results

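The TRIM family in mouse bone marrow was examined through its 48 members with enough reads to be measured. A member is a protein-coding gene whose GENCODE vM21 symbol is Trim followed by a digit and which had 10 or more estimated reads in 3 or more of 7 libraries. Of 68 protein-coding genes with such a symbol, 20 fell below this rule, and 6 of those had 0 reads in every library. The members are 48 of the 13795 protein-coding genes that meet the same read rule. The libraries came from female mice aged 5 to 6 months, 3 from Aim2 knock out (KO) mice and 4 from wildtype (WT) controls. Aim2 encodes a cytosolic sensor of double-stranded DNA that assembles an inflammasome. The source is labelled as whole bone marrow tissue, and the labels name no strain, Aim2 allele or littermate relation. They do not say that each library is a separate mouse, so p-values measure only the spread between these libraries, which may be partly technical.

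Most TRIM proteins share an order of domains: a RING finger, 1 or more B-boxes, and a coiled coil through which they dimerise. The RING finger acts as a ubiquitin E3 ligase, and not every member has one. The C-terminal domain sets what each protein binds, such as the PRYSPRY domain of many antiviral members, the NHL repeats of a few, and the PHD finger with a bromodomain in the chromatin-bound members. Many members are induced by interferon, restrict viruses or tune the signalling of cytosolic nucleic acid sensors, while others serve red cell maturation, muscle or transcriptional silencing.

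Library depth ran from 20300468 to 21099972 estimated reads. Aim2 reads numbered 157, 47 and 59 in KO libraries 1 to 3 and 601, 573, 535 and 533 in WT libraries 1 to 4, a log2 fold change of -2.76 ± 0.38 (SE) with an edgeR adjusted p of 0.028. The direction was the same under all 15 alternative settings, but the adjusted p lay above 0.05 in 9 of them, among them each fit that left out 1 library other than KO library 1 (0.0538 to 0.097). The size fell to -1.28 with an offset for effective transcript length, where the call held, and to -1.17 and -1.08 in the TPM fits, where it did not. The KO libraries all lay below the WT libraries but none was at 0, and KO library 1 held the most. The haemoglobin share of reads was 11.3 to 13.7% for KO and 13.8 to 19.9% for WT libraries, with WT library 1 highest. Erythroid, neutrophil and B lineage markers were all present, as were skeletal muscle markers, whose summed level ran from 65.9 CPM (read counts scaled to the library's TMM-adjusted total) in KO library 1 to 6588 in KO library 3. No gene of those 4 marker lists was at 0 throughout a group.

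Trim30a and Trim30d, neighbouring genes of chromosome 7, rose in the KO libraries and were the only TRIM members to pass the edgeR test. They rose 1.74-fold and 1.69-fold. Of the 47 members tested these 2 are 4.26%, against 0.478% of all 14238 tested genes that were called higher and 0.646% called in either direction (edgeR quasi-likelihood test, Benjamini-Hochberg adjusted p under 0.05 over all genes). None was called lower, where 0.169% of all genes were. At an unadjusted p under 0.05 there were 7 higher and 2 lower members, 9 of 47 against a background of 11.5%. In 8 members every KO library lay above every WT library (6.95% of all genes did so), and in 2 every KO library lay below (5.94%). The family as a whole was centred near 0: the median log2 fold change was 0.01 over the tested members and -0.01 over all tested genes. The log2 fold change was under 0.25 in size in 33 of 47 members (70.2%), against 77.8% of all genes. In bulk tissue a change in the number of cells that express a gene and a change in RNA per cell cannot be told apart.

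**Figure D1:**
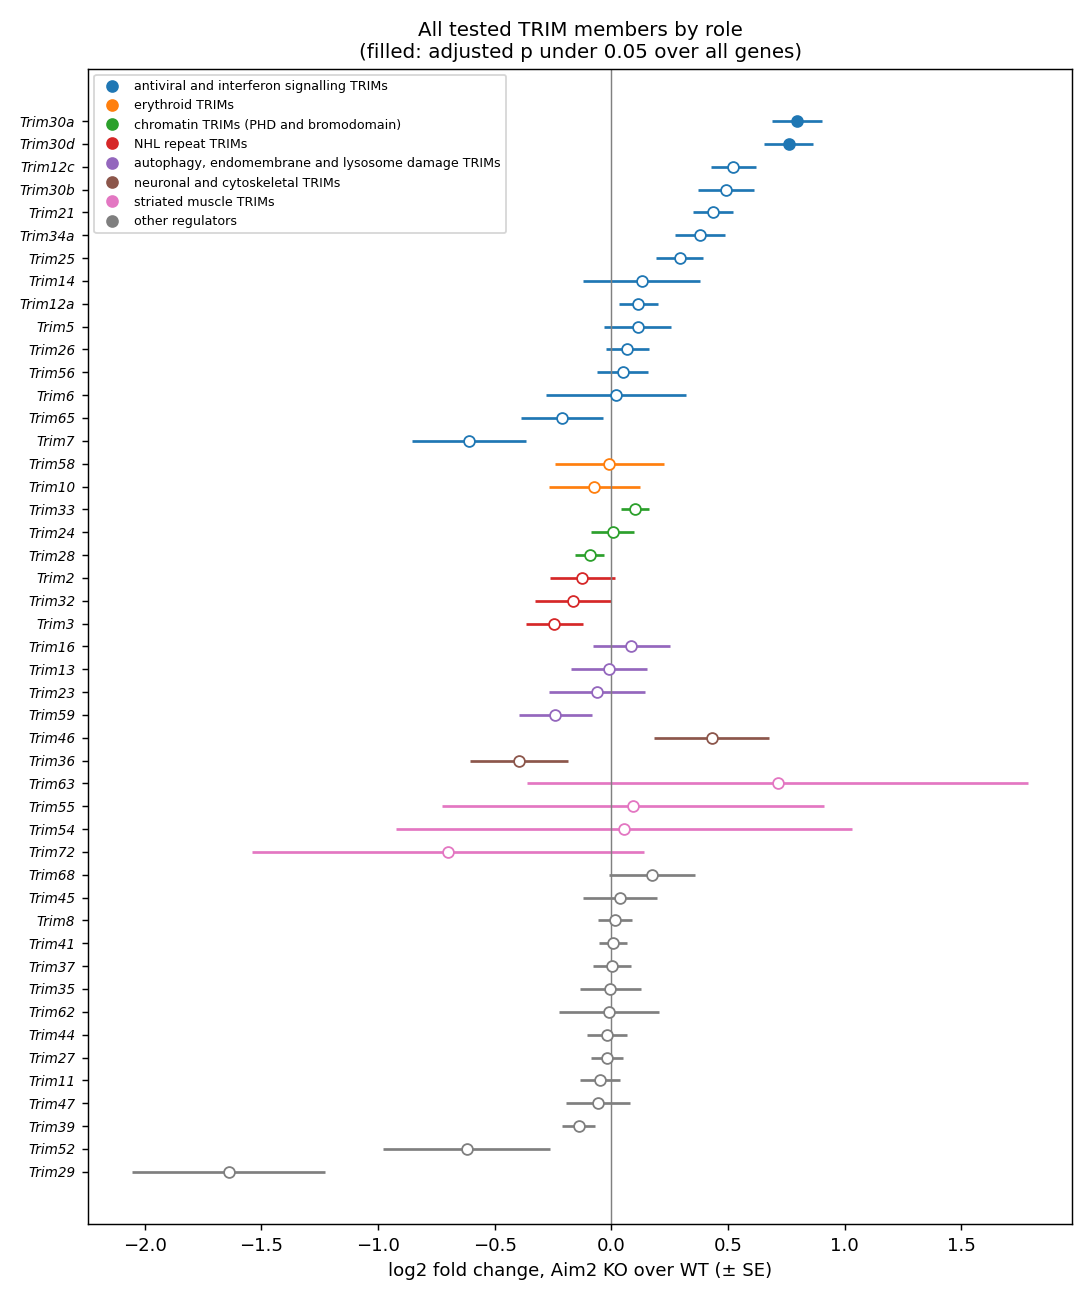
Log2 fold change of KO over WT (x axis, ± SE) for the 47 tested TRIM members (y axis), coloured by role, with filled points for an adjusted p under 0.05. The 2 filled points are Trim30a at 0.80 and Trim30d at 0.76, and the members with the widest error bars are the striated muscle TRIMs.

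Trim30a encodes an interferon-inducible protein known to restrain Toll-like receptor signalling, and Trim30d a close relative with no well established role. Trim30a (ENSMUSG00000030921.17) lies on the minus strand at chr7:104409025-104465193 and Trim30d (ENSMUSG00000057596.13) on the same strand at chr7:104470014-104507849, in GRCm38.p6 with GENCODE vM21 annotation. The 250 bases before the start of both genes, from RefSeq on GRCm38.p6, are shown because these are the members that rose, together with those of Trim12c, the member with the next smallest p. The windows run 5′ to 3′ along each gene at chr7:104465194-104465443, chr7:104507850-104508099 and chr7:104353350-104353599, all on the minus strand. Capitals mark the core of the interferon-stimulated response element, which interferon regulatory factors bind: 2 copies of GAAA parted by any 2 bases, read here on the opposite strand as TTTC, 2 bases and TTTC.
Trim30a: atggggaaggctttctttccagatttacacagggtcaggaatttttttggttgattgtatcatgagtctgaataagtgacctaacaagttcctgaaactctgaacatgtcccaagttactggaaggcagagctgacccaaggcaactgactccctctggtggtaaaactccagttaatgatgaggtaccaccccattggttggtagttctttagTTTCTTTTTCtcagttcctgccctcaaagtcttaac
Trim30d: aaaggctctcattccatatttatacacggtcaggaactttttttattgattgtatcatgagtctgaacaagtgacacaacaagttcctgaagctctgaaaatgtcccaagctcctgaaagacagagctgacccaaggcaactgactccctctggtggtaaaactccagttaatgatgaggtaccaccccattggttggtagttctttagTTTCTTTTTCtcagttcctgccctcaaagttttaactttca
Trim12c: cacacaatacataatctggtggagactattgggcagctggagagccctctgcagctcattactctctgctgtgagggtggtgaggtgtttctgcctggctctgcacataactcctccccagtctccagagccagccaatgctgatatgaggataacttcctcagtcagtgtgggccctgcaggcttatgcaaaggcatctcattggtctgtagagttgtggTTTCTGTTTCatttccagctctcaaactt
Aligned over these 250 bases, Trim30a and Trim30d were identical at 227 positions (90.8%), with 18 mismatches and 10 gap positions. Trim12c was identical to Trim30a at 60.8% and to Trim30d at 60.4%.

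Trim30a stood at 66.3, 60.8 and 81.5 CPM in KO libraries 1 to 3 and at 39.9, 36.7, 39.9 and 43.7 CPM in WT libraries 1 to 4. Every KO library lay well above every WT library, and KO library 3 was the highest. The means were 69.5 ± 10.7 (SD, n = 3) and 40.1 ± 2.87 CPM (SD, n = 4), a log2 fold change of 0.80 ± 0.11 (SE) with an edgeR adjusted p of 0.0269. Nearly all reads (99.7%) were assigned to 1 protein-coding transcript, Trim30a-201.

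Trim30d stood at 21.7, 21.1 and 26.8 CPM in the KO libraries and at 13.1, 13.0, 13.8 and 14.8 CPM in the WT libraries. As for Trim30a, the groups did not overlap and KO library 3 was the highest. The log2 fold change was 0.76 ± 0.10 with an edgeR adjusted p of 0.028. Trim30d-202 took 88.9% of the gene's reads, and Trim30d-201 the next 11.1%. For the minor transcript the estimated reads were 61.7, 61.8 and 64.9 (KO) and 12.4, 26.8, 18.7 and 41.9 (WT). It too did not overlap between groups.

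Both calls lay close to the threshold. Leaving out 1 library at a time kept the Trim30a log2 fold change between 0.66 and 0.88, but the adjusted p exceeded 0.05 without KO library 1 (0.0555) and without WT library 1 (0.0665), library 2 (0.0988) or library 3 (0.0966). For Trim30d the log2 fold change stayed between 0.64 and 0.82, and the call held only without KO library 3 (adjusted p of 0.046), rising to at most 0.106 without WT library 2. Without KO library 3, the highest library in both genes, Trim30a also kept its call, with an adjusted p of 0.0312. In limma on log2(TPM + 1) neither gene passed, with adjusted p-values of 0.125 (Trim30a) and 0.0855 (Trim30d).

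**Figure D2:**
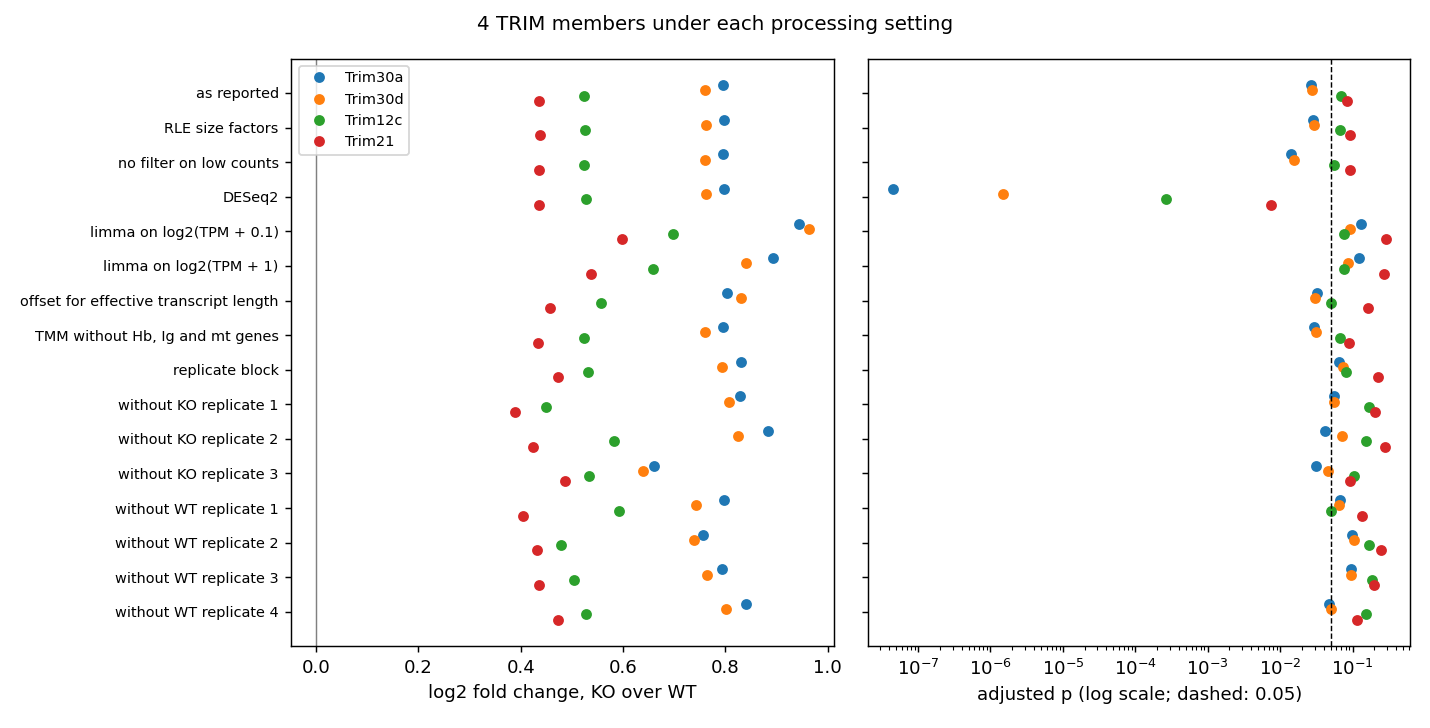
Log2 fold change of KO over WT (left) and adjusted p on a log axis (right, dashed line at 0.05) of Trim30a, Trim30d, Trim12c and Trim21 as reported and under 15 other settings. The log2 fold changes of all 4 genes stayed above 0 in every setting shown, while the adjusted p of all 4 lay on both sides of the line. For Trim12c and Trim21 it was under the line with DESeq2 only.

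Beside Trim30a and Trim30d, 7 members had KO and WT libraries that did not overlap and an unadjusted p under 0.05 without passing the adjusted threshold. Trim12c, which is known to enhance interferon production with Traf6, had 67.6, 56.4 and 60.1 CPM in KO and 48.5, 38.3, 41.0 and 43.0 CPM in WT libraries. The lowest KO library was above the highest WT library, and the log2 fold change was 0.52 ± 0.10 (adjusted p of 0.0697). Trim21, a cytosolic receptor for antibody that directs antibody-coated virus to the proteasome, had 23.1, 22.1 and 19.9 CPM in KO and 15.0, 15.9, 16.0 and 17.3 CPM in WT libraries. Its log2 fold change was 0.44 ± 0.09 (adjusted p of 0.0841). With DESeq2, which called 2.85% of all genes and 1.82% higher, 5 members were called, all of them higher: Trim30a, Trim30d, Trim12c (adjusted p of 0.000268), Trim21 (0.00759) and Trim30b (0.0149).

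Trim30b, a further gene of the Trim30 group, had 31.3, 31.8 and 28.0 CPM in KO and 22.5, 17.3, 22.4 and 24.3 CPM in WT libraries (log2 fold change 0.49 ± 0.12, edgeR adjusted p of 0.15). Most of its reads fell on retained-intron transcripts, 64.7 to 67.0% in KO and 59.4 to 72.7% in WT libraries, so its gene level is mostly not that of a coding transcript. Trim34a, an interferon-inducible gene, had 36.8, 30.0 and 31.4 CPM in KO and 26.3, 21.6, 25.3 and 27.4 CPM in WT libraries (0.38 ± 0.11, adjusted p of 0.218). Trim25, the ligase known for modifying the RNA sensor RIG-I, had 117, 99.8 and 104 CPM in KO and 75.4, 85.6, 89.4 and 98.4 CPM in WT libraries (0.29 ± 0.10, adjusted p of 0.318). In Trim25 the gap between the groups was narrow, between KO library 2 and WT library 4.

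The other 2 of these 7 lay lower in KO libraries. Trim29, an epithelial and macrophage member that lacks a RING finger, had 12, 9 and 4 reads in KO and 28, 32, 22 and 17 reads in WT libraries (log2 fold change -1.64 ± 0.41, adjusted p of 0.16). These are few reads, and this was the lowest fold change in the family. Trim7, a glycogenin partner also placed on the antiviral list, had 6.43, 3.17 and 5.57 CPM in KO and 7.88, 7.03, 9.45 and 6.56 CPM in WT libraries (-0.61 ± 0.24, adjusted p of 0.396). The highest KO and the lowest WT library of Trim7 were close together.

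**Figure D3:**
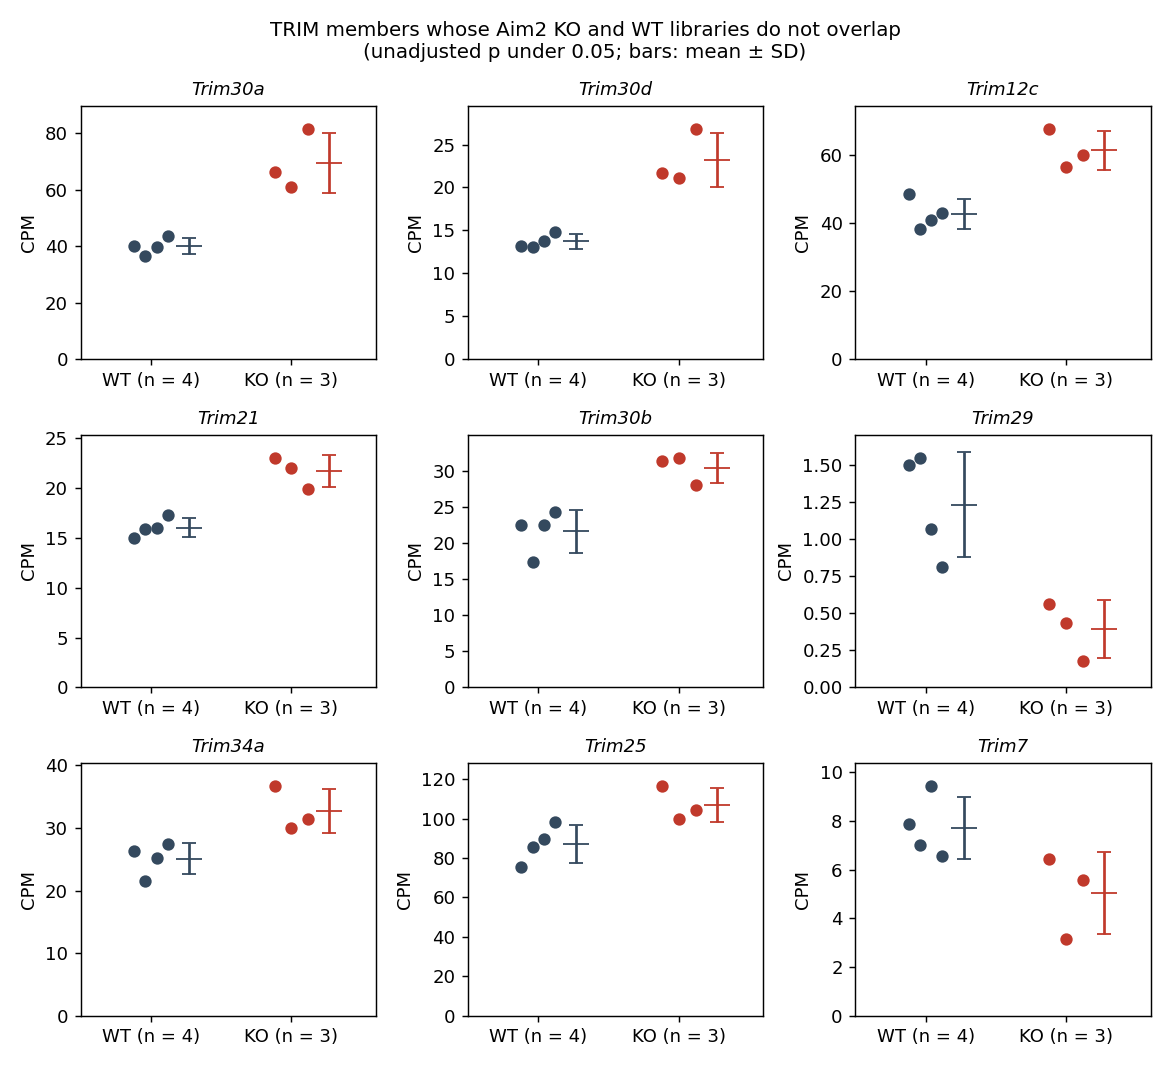
CPM (y axis, from 0) in each library of the 9 members whose KO (n = 3, red) and WT (n = 4, blue) libraries do not overlap at an unadjusted p under 0.05; the bars show the mean ± SD. In 7 panels the KO points lie above the WT points, most widely in Trim30a and Trim30d, and in Trim29 and Trim7 they lie below.

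The antiviral and interferon signalling list holds 16 members, of which 15 were tested: 2 rose, 0 fell and 13 did not pass. The list takes in all 8 members of the chromosome 7 cluster described in the next paragraph, several of them close copies. Among those 15, 13 fold changes were above 0 on the log2 scale, and the median was 0.13. In 7 of them every KO library was above every WT library, and in 1 below. Over all tested genes 0.478% were called higher and 47.3% had a log2 fold change above 0. Every KO library lay above every WT library in 6.95% of all genes, and below in 5.94%. Values near 0 were found for Trim56, a ligase of cytosolic nucleic acid signalling (0.05 ± 0.11), Trim26 (0.07 ± 0.09) and Trim6 (0.02 ± 0.30). Trim65, which modifies the RNA sensor MDA5, had -0.21 ± 0.18. Trim14, an adaptor at the mitochondrial antiviral protein MAVS, had 0.13 ± 0.25 and 1 WT library well below all others. Outside this list 0 of 32 tested members were called by edgeR and 0 by DESeq2, and 1 of them, Trim29, had an unadjusted p under 0.05. Their median log2 fold change was -0.01, and 12 of 32 were above 0.

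Of the 10 protein-coding TRIM genes that lie side by side on chromosome 7, between 104218793 and 104507849 (289.1 kb), 8 are members, in the order Trim6, Trim34a, Trim5, Trim12a, Trim12c, Trim30b, Trim30a and Trim30d. Both genes that rose lie at one end of the cluster. All 8 members are on the antiviral list, so their values, those of both genes that rose among them, were already counted there. All 8 had a log2 fold change above 0, from 0.02 (Trim6) to 0.80 (Trim30a), where 47.3% of all tested genes were above 0. The value was 0.11 ± 0.14 in Trim5, a retroviral restriction factor, and 0.12 ± 0.08 in Trim12a. Summed over the 10 genes, the cluster had 271.5, 240.9 and 271.7 CPM in KO and 190.7, 163.1, 185.9 and 195.7 CPM in WT libraries, a ratio of means of 1.42. Without Trim30a and Trim30d the sums were 183.5, 158.9 and 163.5 against 137.7, 113.4, 132.2 and 137.2 CPM, a ratio of 1.30. In both sums the groups did not overlap.

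Several of these genes are close copies of each other, and reads that fit more than 1 of them are divided by Salmon's model. Of the 31-base stretches in the transcripts of Trim30a, 11.7% also occur in some other gene, 8.53% in Trim30d. Of those of Trim30d, 11.9% occur in another gene, 9.19% in Trim30a. The share found in any other gene was 47.7% for Trim12c, 52.9% for Trim5, 48.7% for Trim34a and 15.7% for Trim12a, whose single values are therefore less certain. For Trim34a all of it occurs in Trim34b, which had 1.59 to 9.09 reads per library. This share was 2.73% for Trim6, 2.60% for Trim30b, 1.86% for Trim21 and 0.558% for Trim25. In Trim6, Trim21 and Trim25 the gene that shared most was outside the family. Sums over close copies do not depend on that division within the group. The Trim30 genes together had 119.9, 114.3 and 136.6 CPM in KO and 75.7, 67.3, 76.3 and 82.9 CPM in WT libraries, a ratio of 1.64. Trim5, Trim12a and Trim12c together had 112.7, 95.4 and 102.6 CPM against 87.5, 72.9, 82.8 and 83.2 CPM, a ratio of 1.27.

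**Figure D4:**
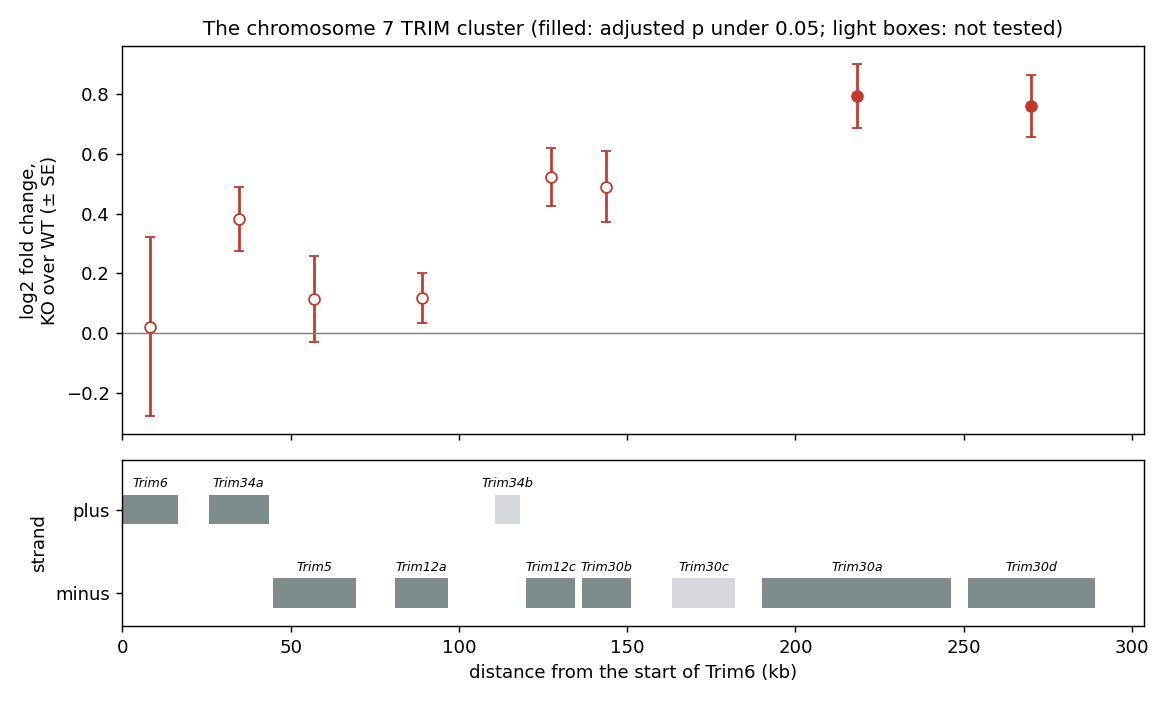
Log2 fold change of KO over WT (upper panel, ± SE, filled where the adjusted p is under 0.05) above a map of the 10 genes by strand (lower panel, boxes from gene start to gene end), against the distance in kb from the start of Trim6. The 2 filled points, Trim30a and Trim30d, are the 2 genes farthest from Trim6, and light boxes mark Trim34b and Trim30c, which are not members.

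The core of the interferon-stimulated response element (GAAA, any 2 bases, GAAA), searched on both strands from 250 bases before to 50 after each RefSeq start, occurred in 3.44% of the 32851 windows of all genes and in 10 of the 50 windows of members. By gene, 3.99% of all 27025 genes held it in a window, against 9 of the 37 members with a window (24.3%). On the antiviral list it was in 8 of 14 genes with a window. Among these are 6 of the 8 cluster members: Trim34a, Trim5, Trim12a, Trim12c, Trim30a and Trim30d. Several of these 6 windows are copies of each other, so these counts are not of independent genes. Short windows around the core are shown because the copies can be compared by eye, with the core in capitals and 10 bases on either side.
Trim30a: caggaactgaGAAAAAGAAActaaagaact
Trim30d: caggaactgaGAAAAAGAAActaaagaact
Trim12c: agctggaaatGAAACAGAAAccacaactct
Trim5: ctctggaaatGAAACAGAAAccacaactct
Trim34a: gcagagaaaaGAAACTGAAActccaaacca
Trim21: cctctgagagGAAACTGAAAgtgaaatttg
Trim30a and Trim30d share all 30 bases. The core lay 26 bases before the start of Trim30a, 31 before that of Trim30d, 19 before that of Trim12c and 39 before that of Trim5, on the strand opposite to the gene, and just past the start in Trim34a and Trim21. Trim21 holds 2 overlapping copies of this GAAA core. Trim5 holds nearly the same window as Trim12c but had a log2 fold change of 0.11. Of the members with the core that are not shown, Trim12a has the same 30 bases as Trim5, with a log2 fold change of 0.12. Trim26 holds 2 copies (0.07) and Trim2 holds 1 (-0.12). The window of Trim25 (0.29) held no such core. The STAT dimer core TTCNNNGAA was in 8.30% of all windows and in 4 of 50 member windows (8.0%), those of Trim15, Trim45 and Trim46, with 0 in the cluster. A match is a description of these letters only, and binding was not measured. The RefSeq start of Trim30b lies 11238 bases from its GENCODE start, and that window held neither core.

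TPM values, which are scaled by transcript length as well as by library, allow levels to be compared between genes. The highest mean over the 7 libraries was that of Trim10, at 180 TPM, followed by Trim28 (119), Trim59 (67.6), Trim27 (55.4) and Trim12a (29.5). The lowest mean was that of Trim15, at 0.234 TPM. The mean level of Trim30a was 22.7 ± 3.90 TPM in KO (SD, n = 3) and 11.8 ± 2.28 TPM in WT (SD, n = 4), and that of Trim30d 8.87 ± 1.15 and 4.53 ± 0.81 TPM. By mean level over all libraries Trim30a had rank 11 and Trim30d rank 26 of the 48 members. Trim59, a membrane-anchored member, had 185, 164 and 115 CPM in KO and 205, 177, 167 and 182 CPM in WT libraries (log2 fold change -0.24 ± 0.15, adjusted p of 0.622). Trim27, a nuclear and endosomal ligase, had 79.5, 81.9 and 77.9 CPM in KO and 85.9, 75.9, 83.5 and 78.1 CPM in WT libraries. The libraries of both groups overlapped in both genes. Trim12a had 33.7, 30.9 and 33.8 CPM in KO and 30.7, 26.9, 32.9 and 30.7 CPM in WT libraries, again overlapping.

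Both erythroid members overlapped between groups and neither passed the test. Trim10, needed for terminal red cell differentiation, had 479.9, 446 and 254.6 CPM in KO and 405.7, 429.5, 387.9 and 432.9 CPM in WT libraries (log2 fold change -0.07 ± 0.19, adjusted p of 0.932). Trim58, which acts on dynein during enucleation of erythroblasts, had 29.4, 23.9 and 13.5 CPM in KO and 20.4, 26.5, 21.1 and 21.5 CPM in WT libraries (-0.01 ± 0.23, adjusted p of 0.995). KO library 3 was the lowest of all 7 in both genes, and without it the log2 fold changes were 0.16 and 0.25. Of 12 erythroid markers 0 were called, 1 had an unadjusted p under 0.05 and DESeq2 called 1, and all 12 had a log2 fold change below 0. Over all tested genes edgeR called 0.646%, 11.5% had an unadjusted p under 0.05 and DESeq2 called 2.85%. A log2 fold change above 0 was found in 47.3% of them. The summed level of the 12 markers was 134500, 146800 and 112700 CPM in KO and 227200, 161600, 143400 and 166100 CPM in WT libraries. Most of this sum is haemoglobin, at 11.3 to 13.7% of reads in KO and 13.8 to 19.9% in WT libraries. The sum was lowest in KO library 3. It was highest in WT library 1, which had the lowest Trim58 level of the WT libraries, while KO library 1 had the highest level of both members. The part of these markers in the 2 members' values was not tested.

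The 4 striated muscle members had very uneven levels. Trim63, the muscle atrophy ligase MuRF1, had 0.0469, 1.20 and 13.4 CPM in KO and 1.93, 2.28, 2.86 and 4.88 CPM in WT libraries. Its relatives Trim55 and Trim54 had 0.0939, 0.288 and 2.08 CPM and 0.0939, 1.63 and 11.6 CPM in KO libraries, against 0.48 to 1.26 and 2.38 to 6.80 CPM in WT libraries. Trim72, which takes part in repair of the muscle membrane, had 0.516, 1.25 and 8.69 CPM in KO and 4.29, 6.98, 2.33 and 9.14 CPM in WT libraries. In all 4 genes KO library 1 was the lowest library, and in all but Trim72 KO library 3 was the highest. The 12 skeletal muscle markers followed the same order of KO libraries, with summed levels of 65.9, 835.9 and 6588 CPM, against 1191, 2223, 1400 and 2348 CPM in WT libraries. None of the 4 members passed the test, with adjusted p-values from 0.81 to 0.99. Without KO library 3, the log2 fold changes of Trim54, Trim55 and Trim63 turned from above 0 to -2.32, -2.001 and -2.27. The part of muscle tissue in these values was not tested.

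**Figure D5:**
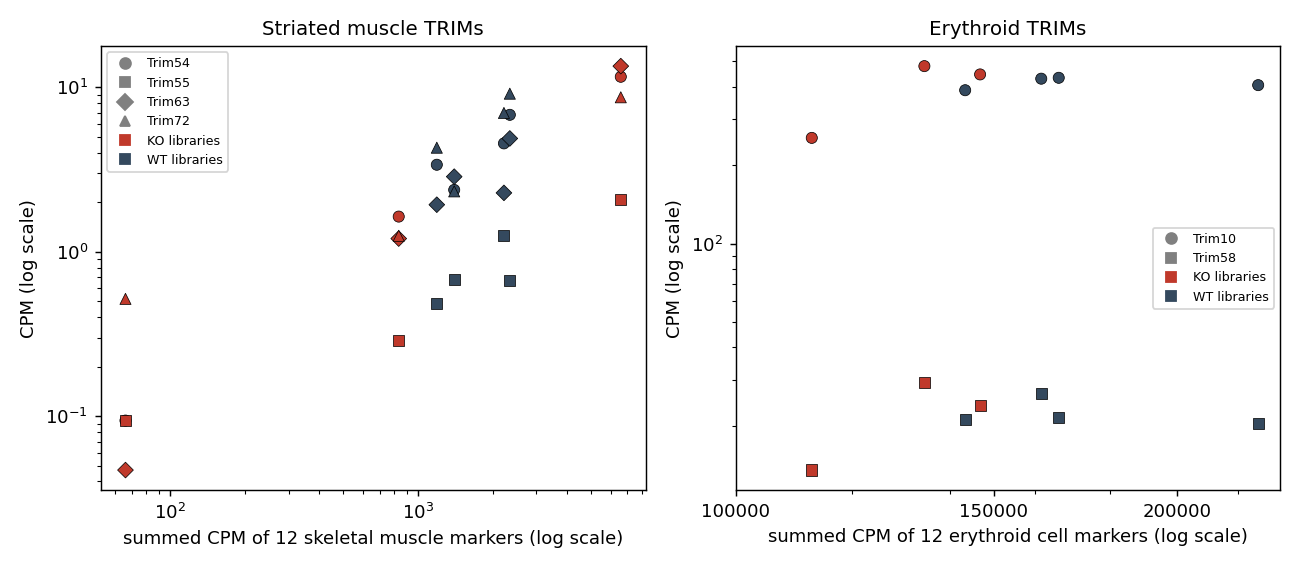
CPM (y axis, log scale) of the 4 striated muscle members (left) and the 2 erythroid members (right) in each of the 7 libraries, against the summed CPM of 12 skeletal muscle or 12 erythroid markers (x axis, log scale). KO library 1 lies at the far left of the muscle panel at 65.9 CPM and KO library 3 at the far right at 6588 CPM, while KO library 3 is the leftmost erythroid point. The erythroid sum is mostly haemoglobin.

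None of the 3 chromatin members passed the test. Trim28, the KAP1 corepressor recruited by zinc finger proteins to silence retroelements, had 226.6, 231.1 and 236.0 CPM in KO and 253.3, 235.1, 242.4 and 255.6 CPM in WT libraries (log2 fold change -0.09 ± 0.06, adjusted p of 0.641). Trim33, a cofactor of SMAD signalling in blood formation, had 43.8, 46.7 and 43.3 CPM in KO and 40.7, 42.7, 41.7 and 41.0 CPM in WT libraries. Its groups did not overlap, by a narrow margin, but its unadjusted p was 0.121 (log2 fold change 0.10 ± 0.06). Trim24, a nuclear receptor cofactor, had 44.9, 40.6 and 36.8 CPM in KO and 45.0, 41.1, 38.6 and 37.6 CPM in WT libraries, and its groups overlapped. Of 10 corepressor partners of these proteins 0 were called by edgeR, 0 by DESeq2 and 0 had an unadjusted p under 0.05. All 10 had a log2 fold change below 0, from -0.162 (Cbx3) to -0.013 (Chd4), where 47.3% of all tested genes were above 0. Their median was -0.07, against -0.01 over all tested genes. The 2 smallest p were those of the heterochromatin proteins Cbx1 and Cbx5, both at -0.16.

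None of the remaining members passed the test. The 3 NHL repeat members Trim2, Trim3 and Trim32 had log2 fold changes of -0.12, -0.24 and -0.16. The 4 members of autophagy and inner membranes ran from -0.24 (Trim59) to 0.08 (Trim16, which marks damaged lysosomes), and the 2 neuronal and cytoskeletal members were Trim36 at -0.40 ± 0.21 and Trim46 at 0.43 ± 0.25. The 14 other regulators ran from -1.64 (Trim29) to 0.17 (Trim68), with 5 above 0. Trim15, on the antiviral list, was a member but had too few reads for the fit, with 14, 7 and 4 reads in KO and 14, 4, 5 and 10 in WT libraries. At the edge of the read rule, Trim15 reached 10 reads in 3 libraries and Trim55 in 4, while Trim30c and Trim9 reached it in 2 and stayed outside.

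Of the pathway genes around the family, those that rose belong to antiviral signalling. Of 19 tested signalling partners 5 rose, 0 fell and 14 did not pass. Over all tested genes 0.478% were called higher and 0.169% lower. Usp18, which removes the ubiquitin-like ISG15 and dampens the interferon receptor, had 27.6, 27.3 and 29.1 CPM in KO and 11.5, 10.5, 10.1 and 13.5 CPM in WT libraries (log2 fold change 1.30, adjusted p of 0.00561). Irf7, the transcription factor that amplifies interferon production, had 161, 135 and 146 CPM in KO and 78.1, 49.0, 51.4 and 76.0 CPM in WT libraries (1.21, adjusted p of 0.0327). In both genes all KO libraries lay above all WT libraries. The 3 cytosolic RNA sensor genes Dhx58 (0.98, adjusted p of 0.00778), Ifih1 (0.74, 0.0392) and Ddx58 (0.64, 0.0484) rose as well. Ddx58 was not called with RLE size factors, in the TPM fits or with the length offset. Ifih1 was not called in the TPM fits, nor Irf7 with the length offset. Usp18 and Dhx58 were called in all of these settings. DESeq2 called 5 genes of this list, and 7 had an unadjusted p under 0.05, against 2.85% and 11.5% of all genes.

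Of 8 tested genes listed as related to the TRIM class but with another symbol, 0 rose and 1 fell. This was Mid1, a microtubule-bound ligase, with 4.84, 5.67 and 5.75 CPM in KO and 52.6, 21.5, 28.3 and 19.2 CPM in WT libraries (-2.49 ± 0.36, adjusted p of 0.0324). WT library 1 was far above the other WT libraries, and all KO libraries were below them. Fsd1l had the next smallest p in this list (-0.44 ± 0.20, adjusted p of 0.461). Of 13 ubiquitin E1 and E2 enzymes 0 were called by edgeR and 0 by DESeq2, and 1 had an unadjusted p under 0.05, Ube2v2 (-0.23 ± 0.08, adjusted p of 0.352). Uba1, the main ubiquitin-activating enzyme, had 0.20 ± 0.10 (adjusted p of 0.511). Over the 4 pathway lists 6 of 50 tested genes were called, against 0.646% of all genes, and 2 to 5 when 1 library was left out.

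Interferon-stimulated genes were counted beside the antiviral members, of which 2 of 15 rose. Of 30 such genes outside the family 20 were called higher and all 30 had a log2 fold change above 0. Their summed levels were 2199, 1928 and 1866 CPM in KO and 1209, 941.7, 958.8 and 1230 CPM in WT libraries. Over all tested genes edgeR called 0.478% higher, and 47.3% had a log2 fold change above 0. The share at an unadjusted p under 0.05 was 11.5%, and DESeq2 called 2.85%. The 15 B lineage markers all had a fold change below 0, with 0 called by edgeR, 12 at an unadjusted p under 0.05 and 8 called by DESeq2, and summed to 334.1, 214.2 and 333 CPM in KO and 535, 441.2, 558.7 and 703 CPM in WT libraries. The groups of the summed B lineage, neutrophil, plasma cell and interferon-stimulated levels did not overlap. Neutrophil markers summed to 24930, 27090 and 26970 CPM in KO and 19000, 22600, 24670 and 23620 CPM in WT libraries, and 0 of 14 were called by edgeR, 1 by DESeq2 and 4 at an unadjusted p under 0.05. Plasma cell markers summed to 709.9, 883.5 and 786.2 CPM against 444.5, 544.1, 678.6 and 557.1 CPM, with 0 of 8 called by edgeR, 2 by DESeq2 and 6 at an unadjusted p under 0.05. Monocyte and macrophage markers, of which 1 of 12 was called higher, summed to 1417, 1347 and 1513 CPM against 874.6, 1204, 1282 and 1411 CPM, and overlapped. Of 10 tested dendritic cell markers 2 were called lower and 0 higher by edgeR, where 0.169% of all tested genes were called lower. A log2 fold change above 0 was found in 6 of the 10. Their list summed to 169.9, 183.1 and 220.7 CPM in KO and 175.7, 188.0, 186.6 and 197.5 CPM in WT libraries, and overlapped. No marker was at 0 throughout a group, and the part of these cells in the TRIM values was not tested.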

How the data were processed

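Strand-specific mRNA libraries of bone marrow from 3 Aim2 KO and 4 WT female mice were sequenced on DNBSEQ, per the labels' protocols. Estimated counts and TPM per transcript were deposited as made by the authors with Salmon 1.7.0 on GRCm38.p6, with FastQC 0.11.9 and DESeq2 also named, per the submitters' processing notes; Salmon's options and transcript set are not given in the sources used here. Effective lengths in the deposited files were used in 1 alternative. Here, transcripts were joined to GENCODE vM21 genes by identifier without version (569 of 116546 unmatched, at most 0.0662% of reads), and the authors' estimated counts were added up by gene, then rounded.

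All 14238 genes passing filterByExpr were fitted with edgeR 4.0.16 (quasi-likelihood, TMM, genotype alone) in R 4.3.3, with Benjamini-Hochberg adjustment over all of them and a threshold of 0.05. CPM are TMM-scaled, errors of fold changes are SE, and TMM factors ran from 0.918 (WT library 1) to 1.06. Estimated counts carry counting and assignment error, and copies of a gene share reads. On simulated data of this comparison with 14116 genes, 68% of 100 genes changed 2-fold and 85% of 100 changed 4-fold were recovered, with 7.83% false among 166 calls. Alternatives used DESeq2 1.42.0, limma 3.58.1 on log2(TPM + 0.1) and log2(TPM + 1), RLE factors, no filter, a length offset, TMM without haemoglobin, immunoglobulin and mitochondrial genes, a replicate block, and each library left out.

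The members and gene lists were chosen with earlier results of these data known. Values per library are given for members called, members not overlapping at an unadjusted p under 0.05, the 5 highest by TPM, and the erythroid, chromatin and muscle members; for pathway lists, called genes and the 2 smallest p. Mb21d1 was not matched. Sequences are from RefSeq. Of 30 interferon-stimulated genes on that list, Irf7 and Usp18 are also signalling partners, and Bst2 is also a dendritic cell marker. T and NK markers (0 of 13 called by edgeR, 3 by DESeq2, 7 at an unadjusted p under 0.05) were also counted. So were platelet markers (0 of 8 by edgeR, 0 by DESeq2 and 0 at an unadjusted p under 0.05). For dendritic cell markers DESeq2 called 2, and 2 had an unadjusted p under 0.05. Over all tested genes edgeR called 0.646%, DESeq2 called 2.85%, and 11.5% had an unadjusted p under 0.05.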

Additional observations from a re-analysis of the deposited data

Results flagged for a closer look

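In 3 of 48 members 1 WT library stood apart from the other 3 by Dixon's ratio of gap to range, above its critical value at 95% for 4 libraries; chance flags about 1 in 20 groups. Trim11 had 63.6 CPM in WT library 1, against 54.1 to 55.2 CPM in the other WT libraries. Trim14 had 3.38 CPM in the same library, against 6.80 to 7.27 CPM in the others and 6.10 to 7.51 CPM in the KO libraries. Trim6 had 1.68 CPM in WT library 4, against 1.07 to 1.16 CPM. WT library 1 also had the highest haemoglobin share (19.9%) and the lowest TMM factor (0.918) of all 7 libraries; their part in its Trim11 and Trim14 values was not tested.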

How the results depend on the processing

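Counts of called members were 2 as reported, 5 with DESeq2, and 0 with limma on log2(TPM + 0.1) and on log2(TPM + 1). Over all genes 92 were called as reported (68 higher, 24 lower), 405 with DESeq2 (259 and 146), 49 (43 and 6) and 50 (45 and 5) with the 2 TPM fits and 55 (44 and 11) with the length offset; the cause was not tested. RLE factors, no filter and the TMM variant gave 2 members each, and 80, 121 and 79 genes. In the TPM fits the median of all genes shifted to 0.13 and 0.10, Trim30a had 0.94 and 0.89 (adjusted p of 0.129 and 0.125), Trim30d 0.96 and 0.84 (0.0919 and 0.0855), and Aim2 -1.17 and -1.08 (0.054 and 0.0537). Their log2 fold changes turned sign for Trim10 (0.0123 and 0.0124), Trim27 (0.0977 and 0.0961), Trim58 (0.0624 and 0.0612), Trim54 (-1.20 and -0.43) and Trim63 (-0.76 and -0.013), and with the smaller pseudocount for Trim55 (-0.29); with the length offset Trim24 was at -0.0053.

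Leaving out 1 library gave 0 to 2 called members, 17 to 65 genes, 2 to 5 pathway genes against 6, and -3.49 to -2.47 for Aim2 (adjusted p of 0.000496 to 0.097, under the threshold in 1 of 7 fits). Members that changed sign ranged from -0.24 to 0.16 (Trim10), -0.0459 to 0.0123 (Trim27), -0.26 to 0.25 (Trim58), -0.0692 to 0.0702 (Trim24), -2.32 to 0.63 (Trim54), -2.001 to 0.62 (Trim55) and -2.27 to 1.29 (Trim63).

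With the replicate block over samples 1 to 3 of each group, 0 members, 21 genes (20 higher, 1 lower) and 2 pathway genes (Irf7 and Usp18) were called; Trim30a had 0.83 (adjusted p of 0.0644), Trim30d 0.79 (0.0732) and Aim2 -2.97 (0.0605), and Trim24 (-0.0304), Trim54 (-0.91), Trim55 (-0.56) and Trim63 (-0.45) turned sign. Same-numbered libraries correlated at 0.106, -0.028 and -0.267 in their deviations from the group means. Libraries with different numbers ran from -0.213 to 0.255. With so few libraries these values cannot decide whether the numbers pair libraries, and the labels do not say. The block fit also has 1 WT library fewer. Few reads limit the precision for Trim29, Trim15, Trim52 and Trim6, and for the muscle members in KO library 1.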

Other observations

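Trim30c, which lies between Trim30b and Trim30a, stayed below the read rule, with 11, 11 and 7 reads (KO) and 3.02, 5, 4 and 3 reads (WT). All 3 KO libraries were above all 4 WT libraries. In Trim34a the 2 main transcripts were unlike each other: Trim34a-203 (62.6% of reads) had 607.9, 378.9 and 436.7 reads in KO and 310.6, 255.5, 357.7 and 239 in WT libraries, and Trim34a-201 (36.6%) had 171.4, 241.5 and 256.9 in KO and 179.8, 179.6, 159.5 and 323.5 in WT libraries. The former did not overlap between groups and the latter did. In Trim7, WT library 1 had 7.24 reads on Trim7-201, against 33.0 to 43.1 reads in the other WT libraries.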
